A study of Saccharomyces cerevisiae with 4 samples.

Results

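The YRF1 genes encode the Y′ element helicases of budding yeast (Saccharomyces cerevisiae). Y′ elements are long repeats that lie directly inside the terminal TG-rich telomere repeats of many chromosome ends, and the protein made from the complete ones is a DNA helicase. YRF1 is known for its rise in cells that keep their telomeres by recombination once telomerase is lost, when Y′ elements themselves are amplified. The same subtelomeric ends give rise to TERRA, the noncoding telomeric repeat RNA, part of which is Y′ sequence. The 8 rows whose name in the R64 assembly is YRF1-1 to YRF1-8 were taken, out of 6459 rows in the count table.

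All 4 libraries came from 1 strain of the BY4741 background, with no library of a strain lacking the degron. It carries the construct HIS3::ADH1-OsTIR19Myc, in whose name ADH1 stands before OsTIR1, the plant auxin receptor that a degron needs. It also carries the allele ESS1AID 71-114-6Flag::hphB, a degron-tagged form of the prolyl isomerase that acts on the tail of RNA polymerase II. Cultures growing in YPD at 30°C received DMSO, the solvent control, or 2 mM of the auxin IAA for 3 h, with 2 biological replicates each. An effect of IAA itself therefore cannot be told apart from an effect of losing Ess1, and the protein was not measured in the files used. The comparison asks how YRF1 RNA differed between the 2 treatments, in a study directed at TERRA and telomere replication.

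Library totals ran from about 26046700 to 27609300 estimated counts in DMSO and from about 33589100 to 33625200 in IAA. RNA of ESS1, the tagged gene, stood at 5.15 and 5.31 CPM (a count scaled by its library's total, here after the TMM adjustment between libraries) in DMSO and at 6.70 and 7.92 in IAA. At this low level it was called higher in IAA, with a log2 fold change of 0.48 (edgeR adjusted p = 0.0109). This RNA says nothing of the protein. Of 5799 rows tested with edgeR's quasi-likelihood test at a Benjamini-Hochberg adjusted p of 0.05, 28.7% were higher and 29.6% were lower in IAA. Both IAA libraries lay above both DMSO libraries in 40.2% of the tested rows and below both in 41.3%. Counts of YRF1 rows and of the gene lists are read against these shares.

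The 8 genes lie at 8 places, of which 7 end within 222 to 428 bases of a chromosome end in the R64 assembly. YRF1-1 (YDR545W, chrIV:1526321-1531711), YRF1-2 (YER190W, chrV:571480-576525), YRF1-3 (YGR296W, chrVII:1084864-1090591) and YRF1-8 (YOR396W, chrXV:1085473-1090863) lie on right arms, on the plus strand. YRF1-6 (YNL339C, chrXIV:371-6098) and YRF1-7 (YPL283C, chrXVI:280-6007) lie on left arms, on the minus strand. The right end of chromosome XII carries a pair of them on the plus strand, YRF1-4 (YLR466W, chrXII:1067087-1071235) and, outside it, YRF1-5 (YLR467W, chrXII:1072508-1077898), so that YRF1-4 ends 6942 bases from the chromosome end. YRF1-3, YRF1-6 and YRF1-7 are annotated with 2 exons around an intron of 148 bases and a coding length of 5580 bases. YRF1-1, YRF1-5 and YRF1-8 have 1 exon of 5391 bases, YRF1-2 has 1 of 5046 and YRF1-4 has 1 of 4149. The number of Y′ copies in the strain sequenced was not measured in the files used, and the assembly stands for the S288C reference.

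The copies are nearly the same in sequence, which sets what a short read can tell about any of them. The annotated transcripts of YRF1-1, YRF1-5 and YRF1-8 are identical, and so are those of YRF1-3 and YRF1-7, so the 8 genes hold 5 distinct sequences. YRF1-6 differs from YRF1-3 at 2 of 5580 bases, an identity of 99.96%. The substitutions are A4821G and A4832T, with YRF1-3 as the reference and positions counted from 1 at the start of its spliced coding sequence. They are printed because the counts of YRF1-6 and YRF1-3 differed widely. The stretch lies at chrXIV:1089-1160 on the minus strand in YRF1-6 and at chrVII:1089802-1089873 on the plus strand in YRF1-3, and capitals mark the differing bases. The other 6 copies carry the YRF1-3 letters here.
YRF1-6: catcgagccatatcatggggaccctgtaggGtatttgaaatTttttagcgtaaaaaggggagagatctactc
YRF1-3: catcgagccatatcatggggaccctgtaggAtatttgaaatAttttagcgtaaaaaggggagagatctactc

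The YRF1-1 sequence differs from the YRF1-3 sequence at 31 of 5388 aligned bases, an identity of 99.42%. Of these differences 25 lie in the first of 3 equal parts of YRF1-3, 1 in the middle part and 5 in the last. The densest cluster is shown because it separates the 3 identical one-exon copies from the spliced ones, with capitals on the differing bases. It lies at chrIV:1527537-1527582 in YRF1-1 and at chrVII:1086420-1086465 in YRF1-3, both on the plus strand. YRF1-5 and YRF1-8 carry the YRF1-1 letters, and YRF1-2, YRF1-6 and YRF1-7 carry the YRF1-3 letters. The YRF1-4 transcript begins inside this stretch, shares the substitutions A1433G, A1437G and G1444A with YRF1-1, and lacks the remaining one, T1419C.
YRF1-1: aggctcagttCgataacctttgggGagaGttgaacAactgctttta
YRF1-3: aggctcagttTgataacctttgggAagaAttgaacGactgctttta

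YRF1-2 differs from YRF1-3 at 8 of 5046 bases, all of them in 1 stretch of 127 bases near its start. It lies at chrV:571601-571727 in YRF1-2 and at chrVII:1085667-1085793 in YRF1-3, both on the plus strand. It is printed, with the 8 differing bases in capitals, because every 100-base window particular to YRF1-2 overlaps it.
YRF1-2: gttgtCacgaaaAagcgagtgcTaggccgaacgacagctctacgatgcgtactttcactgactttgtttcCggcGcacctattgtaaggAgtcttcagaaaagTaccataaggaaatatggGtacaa
YRF1-3: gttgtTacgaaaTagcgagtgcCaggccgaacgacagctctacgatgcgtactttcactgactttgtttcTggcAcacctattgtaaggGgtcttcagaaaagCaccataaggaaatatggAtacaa

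YRF1-4 starts further inside the element and lacks 19 bases that the other copies have, and it differs from YRF1-1 at 16 of 4149 aligned bases. Several of its first bases also differ from YRF1-1 and are not shown. The stretch shown covers the missing bases and 5 substitutions. It lies at chrXII:1067114-1067218 in YRF1-4 and at chrIV:1527571-1527694 in YRF1-1, both on the plus strand. Capitals mark substituted bases in both lines and, in YRF1-1, the run that YRF1-4 lacks.
YRF1-4: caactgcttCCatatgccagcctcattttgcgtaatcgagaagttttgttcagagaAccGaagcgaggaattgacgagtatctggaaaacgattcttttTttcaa
YRF1-1: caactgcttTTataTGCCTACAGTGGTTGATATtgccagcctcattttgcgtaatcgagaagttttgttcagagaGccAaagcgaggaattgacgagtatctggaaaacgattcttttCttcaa

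**Figure D1:**
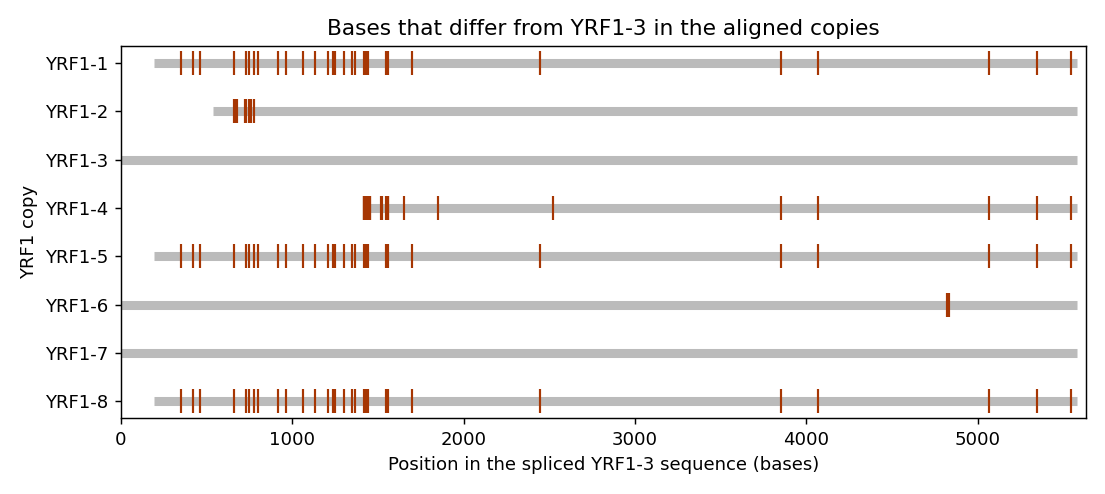
Positions at which each YRF1 transcript differs from YRF1-3, in bases along the spliced coding sequence of YRF1-3 (x axis), 1 line per transcript (y axis). YRF1-2 differs at 8 bases and YRF1-6 at 2, whereas YRF1-1, YRF1-5 and YRF1-8 differ at the same 31, mostly in the first of 3 equal parts.

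Cut into every possible window of 100 bases, 6 of the 8 transcripts held no window that was absent from all other annotated transcripts. YRF1-2 had 191 such windows, 3.86% of its length in windows, and YRF1-4 had 296, or 7.31%. Over both strands of the whole genome, 3.86% of the YRF1-2 windows but only 3.11% of the YRF1-4 windows occurred at a single place. Windows found in YRF1 transcripts and nowhere else among the transcripts made up 16.6% to 24.9% of each copy, and all remaining windows also occurred in other Y′ open reading frames. The median window was shared by 10 or 11 transcripts and the most shared one by 19. Windows of 150 bases raised the share absent from other annotated transcripts to 4.80% for YRF1-2 and 11.1% for YRF1-4, and left the other 6 at 0. Between 7.4% and 10.0% of the 100-base windows were the reverse complement of another annotated transcript.

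**Figure D2:**
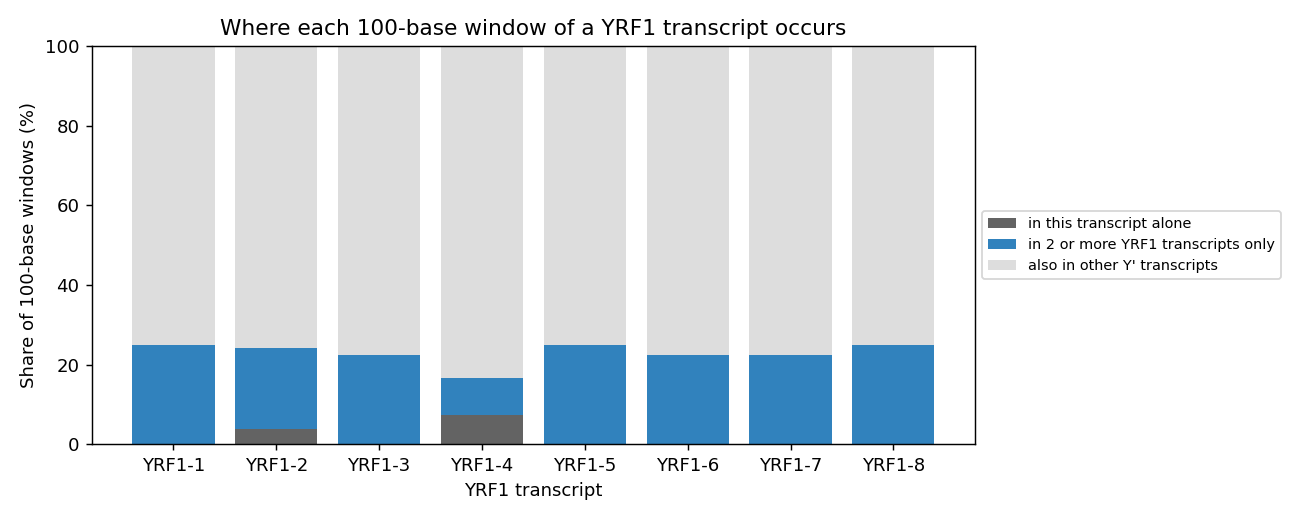
Share of the 100-base windows of each YRF1 transcript (y axis, percent) found in that transcript alone, in 2 or more YRF1 transcripts only, or also in other Y′ transcripts. Among annotated transcripts, YRF1-2 and YRF1-4 alone show windows of their own, 3.86% and 7.31%, and shared Y′ windows fill most of every bar.

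That likeness bears on the counts. The submitters' processing notes name RSEM, which divides a read matching several genes among them by estimate, and all 8 YRF1 rows hold decimals, as do 428 of all 6459 rows. A single YRF1 row is therefore an estimate of how reads were divided, while the sum of the 8 rows does not depend on division among YRF1 copies. The sum still depends on division between YRF1 and other Y′ rows, so both sums are given. Changes in the number of cells that make a transcript and in its amount per cell cannot be told apart in these bulk cultures.

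Summed over the family, the scaled counts assigned to YRF1 rows were slightly higher after IAA. The 8 rows together held 33417.42 and 35772.65 estimated counts in the DMSO libraries and 47894.12 and 46258.23 in the IAA libraries, which was 0.128%, 0.130%, 0.143% and 0.138% of all counts. Scaled, this was 1237 and 1250.1 CPM in DMSO and 1486 and 1420 CPM in IAA. Both IAA libraries lay above both DMSO libraries. The mean rose from 1243 ± 9.42 to 1453 ± 46.4 CPM (SD, n = 2 each), a 1.17-fold rise with a log2 fold change of 0.22, a standard error of 0.0415 and an edgeR adjusted p of 0.00196. In that fit, with the 8 rows replaced by their sum, 28.8% of 5792 rows were called higher, and the median called row of the whole table changed 1.25-fold in either direction, so the family sum moved less than a typical called gene.

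The size of that rise depended on the scaling and on the measure summed. Under library size alone, where the median over all genes shifted by -0.10, the log2 fold change of the YRF1 sum was 0.12 with an edgeR adjusted p of 0.0277. On log2 of the summed FPKM plus 1, tested with limma, it was 0.08 and missed the threshold with an adjusted p of 0.135. FPKM divides a count by gene length and by library total, without the TMM factors of 1.04 for both DMSO libraries and 0.960 and 0.969 for the IAA libraries. Division by length gives more weight to a read in YRF1-4, of 4149 bases, than to 1 in YRF1-3, of 5580. Unlike the summed counts, the summed FPKM therefore also depends on the division of reads among YRF1 copies, and its difference from them is not one of scaling alone. The summed FPKM was 268 and 272 in DMSO and 290 and 280 in IAA.

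The sum of the 29 other Y′ open reading frames did not show the same movement. They are open reading frames annotated in Y′ elements without the YRF1 name, and 25 rows outside the family shared at least 1 window of 100 bases with a YRF1 transcript. Their sum stood at 1456 and 1539 CPM in DMSO and at 1384 and 1416 CPM in IAA, with both IAA libraries below both DMSO libraries. The log2 fold change was -0.10 with a standard error of 0.0437 and an edgeR adjusted p of 0.0861, which missed the threshold. Its most abundant row, YPR204W, fell from a mean of 460 to 380 CPM. The sum also holds 3 rows antisense to YRF1 windows, among them YFL068W, at 24.99 and 10.2 CPM, and YER190C-B, at 18.0 and 0 CPM in DMSO and IAA. Row by row, 6 of the 26 tested were called higher and 6 lower, so the sum does not stand for each of them. The ratio of YRF1 counts to the summed counts of these other Y′ rows was 0.850 and 0.812 in DMSO and 1.07 and 1.003 in IAA. YRF1 rows took 45.9% and 44.8% of all Y′ counts in DMSO and 51.75% and 50.1% in IAA.

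Added up over all 37 Y′ rows, the level was 2691 and 2790 CPM in DMSO and 2871 and 2836 CPM in IAA. The mean was 2741 ± 69.6 in DMSO and 2854 ± 24.4 CPM in IAA (SD, n = 2 each), a ratio of 1.04. The log2 fold change was 0.06 with a standard error of 0.0403, and the edgeR adjusted p of 0.238 missed the threshold. Scaled by library size alone its sign turned, to -0.05 with an adjusted p of 0.311. The Y′ share of all counts was 0.279% and 0.289% in DMSO and 0.276% and 0.275% in IAA. The YRF1 rows are part of this total, so the rise of the YRF1 sum and the level of the Y′ class are not independent results. How much of the rise of the YRF1 sum lies in the division of reads between YRF1 and other Y′ rows was not tested.

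**Figure D3:**
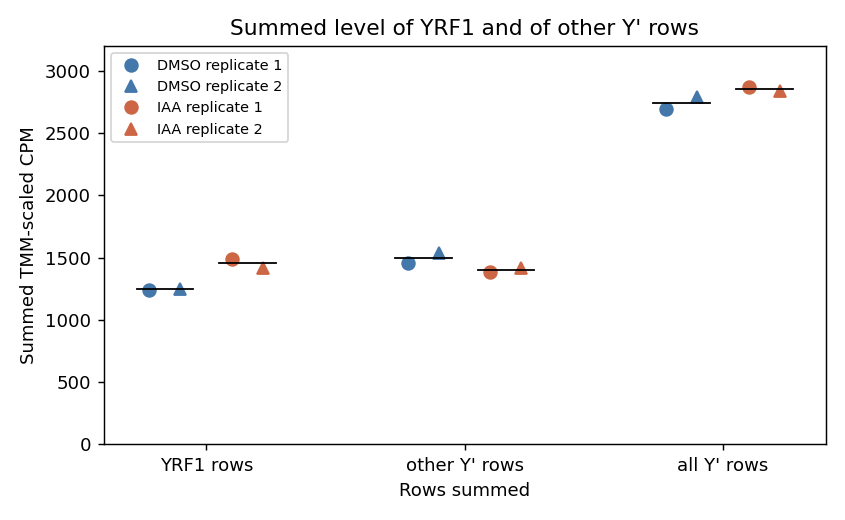
Summed TMM-scaled CPM (y axis, from 0) of the 8 YRF1 rows, of the other Y′ rows and of all 37 Y′ rows, with 1 point per library and a line at each group mean of 2 libraries. IAA points lie above DMSO points for YRF1 (1486 and 1420 against 1237 and 1250.1 CPM), below them for the other Y′ rows, and close to them for the total.

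Taken 1 by 1, all 8 rows were called, 6 higher and 2 lower in IAA, beside 28.7% and 29.6% of all tested rows. Since 3 rows carry identical counts, these are 6 distinct sets of values, 4 higher and 2 lower. In each the IAA libraries did not overlap the DMSO libraries, as in 40.2% of all tested rows in the upward and 41.3% in the downward direction.

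YRF1-1, YRF1-5 and YRF1-8, the identical copies of 5391 bases, each held 4486.4 and 4662.14 estimated counts in the DMSO libraries and 7824.41 and 7678.44 in the IAA libraries. Their level was 166 and 163 CPM in DMSO and 243 and 236 CPM in IAA, with close replicates in both groups. It rose 1.45-fold, from 164 ± 2.23 to 239 ± 4.93 CPM (SD, n = 2 each), with a log2 fold change of 0.54, a standard error of 0.0431 and an edgeR adjusted p of 4.32e-05. With identical sequence and identical values, they are 1 measurement and not 3. Together they rose from 493 ± 6.68 to 717 ± 14.8 CPM.

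YRF1-2, which has the stretch of its own printed above, held 978.61 and 1013.73 estimated counts in the DMSO libraries and 1848.44 and 1577.51 in the IAA libraries. Scaled, this was 36.2 and 35.4 CPM in DMSO and 57.3 and 48.4 CPM in IAA. Both IAA libraries were above both DMSO libraries, and the IAA pair was wider apart. The row rose 1.48-fold, with a log2 fold change of 0.56, a standard error of 0.0825 and an edgeR adjusted p of 6.40e-04.

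YRF1-4, the inner copy on chromosome XII and the other one with windows of its own, went the opposite way. It held 9420.06 and 10491 counts in the DMSO libraries and 8946.15 and 8605.37 in IAA, or 349 and 367 against 277 and 264 CPM. It fell 1.32-fold, from 358 ± 12.7 to 271 ± 9.42 CPM (SD, n = 2 each), with a log2 fold change of -0.40, a standard error of 0.0466 and an edgeR adjusted p of 2.05e-04. The rows of the 2 copies with the most sequence of their own, YRF1-2 and YRF1-4, thus moved in opposite directions. YER190C-B, a row inside YRF1-2 on the opposite strand, stood at 20.9 and 15.1 CPM in DMSO and at 0 in both IAA libraries. Whether reads were divided differently between YER190C-B and YRF1-2 in the 2 treatments was not tested.

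YRF1-6 also fell. It held 8868.95 and 10080.6 counts in the DMSO libraries and 7802.46 and 8246.91 in IAA, or 328 and 352 against 242 and 253 CPM. The fall was 1.37-fold, with a log2 fold change of -0.46, a standard error of 0.0494 and an edgeR adjusted p of 1.50e-04. Its 2-base neighbours in sequence, YRF1-3 and YRF1-7, rose.

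YRF1-3 held 356.15 and 53.09 counts in the DMSO libraries and 2399.61 and 2219.67 in IAA, or 13.2 and 1.85 CPM against 74.4 and 68.1 CPM. The DMSO replicates differed from each other far more than the IAA replicates did. The rise was 9.63-fold, from 7.52 ± 8.01 to 71.3 ± 4.45 CPM (SD, n = 2 each), with a log2 fold change of 3.27, a standard error of 0.460 and an edgeR adjusted p of 5.23e-04. Its size rested on which DMSO library was kept, at 38.4-fold without DMSO replicate 1 and 5.41-fold without DMSO replicate 2.

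YRF1-7, identical to YRF1-3 in its transcript, held 334.45 and 147.81 counts in the DMSO libraries and 3424.23 and 2573.45 in IAA, or 12.4 and 5.17 CPM against 106 and 79.0 CPM. It rose 10.6-fold, with a log2 fold change of 3.41, a standard error of 0.277 and an edgeR adjusted p of 4.58e-05. The rise came to 17.9-fold without DMSO replicate 1 and to 7.48-fold without DMSO replicate 2. The ratio of YRF1-7 to YRF1-3 counts was 0.939 and 2.78 in DMSO and 1.43 and 1.16 in IAA. Transcripts identical in the RefSeq annotation were thus given unequal counts, whose order was not the same in every library. YRF1-1, YRF1-5 and YRF1-8, also identical there, were given equal counts in every library, and why the 2 sets differed in this was not tested.

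**Figure D4:**
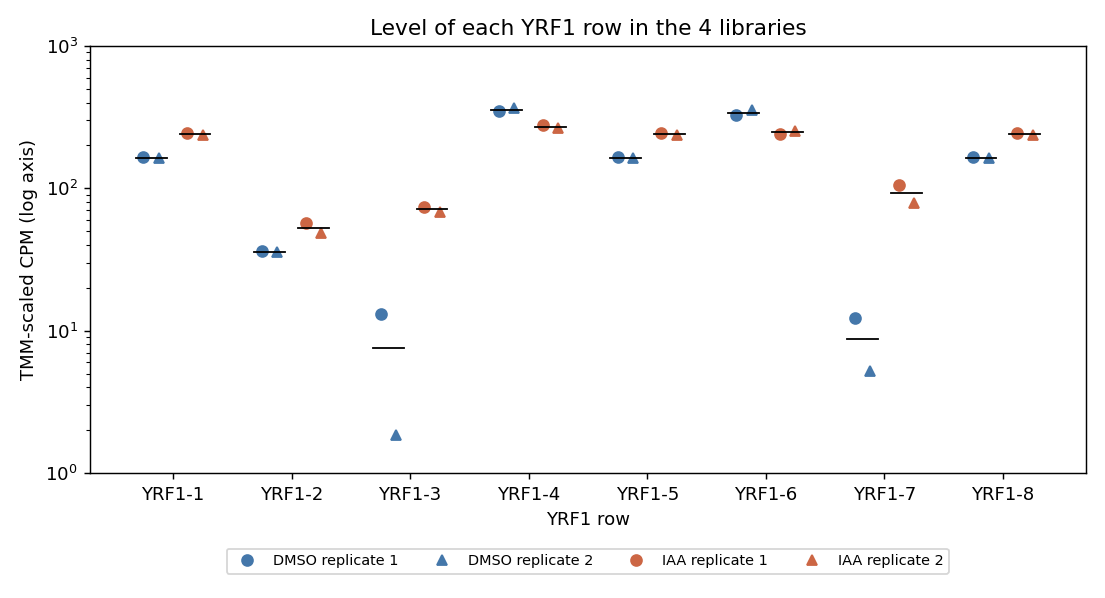
TMM-scaled CPM of each YRF1 row (y axis, log scale) in the 2 DMSO and 2 IAA libraries, with 1 point per library and a line at each group mean. YRF1-4 and YRF1-6 are lower in IAA, the other 6 are higher, and YRF1-3 and YRF1-7 show the widest spread in DMSO (13.2 and 1.85 CPM, and 12.4 and 5.17 CPM).

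Within the trio of spliced copies, the split among rows differed between libraries while their total kept nearly the same share of the family. YRF1-6 had 24.9 and 190 times the counts of YRF1-3 in DMSO and 3.25 and 3.72 times in IAA, and 26.5 and 68.2 times those of YRF1-7 in DMSO and 2.28 and 3.20 times in IAA. YRF1-3 and YRF1-7 together took 2.07% and 0.562% of the YRF1 counts in DMSO and 12.2% and 10.4% in IAA. All 3 together took 28.6%, 28.7%, 28.5% and 28.2% in the DMSO and IAA libraries in turn. Their joint level was 354 and 359 CPM in DMSO and 423 and 400 CPM in IAA, a ratio of means of 1.15, close to that of the whole family. The large fold changes of YRF1-3 and YRF1-7 and the fall of YRF1-6 thus lay within a group of transcripts that differ at no more than 2 bases, and whether they reflect RNA or the division of reads was not tested.

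The other large movement in share was between YRF1-4 and the identical trio. YRF1-4 took 28.2% and 29.3% of the family counts in DMSO and 18.7% and 18.6% in IAA. YRF1-1, YRF1-5 and YRF1-8 together took 40.3% and 39.1% in DMSO and 49.0% and 49.8% in IAA. YRF1-2 stayed a minor row, at 2.93% and 2.83% in DMSO and 3.86% and 3.41% in IAA. Removing any 1 row from the sum left its log2 fold change between 0.14 and 0.42, with the lowest value without YRF1-7 and the highest without YRF1-6 or YRF1-4.

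**Figure D5:**
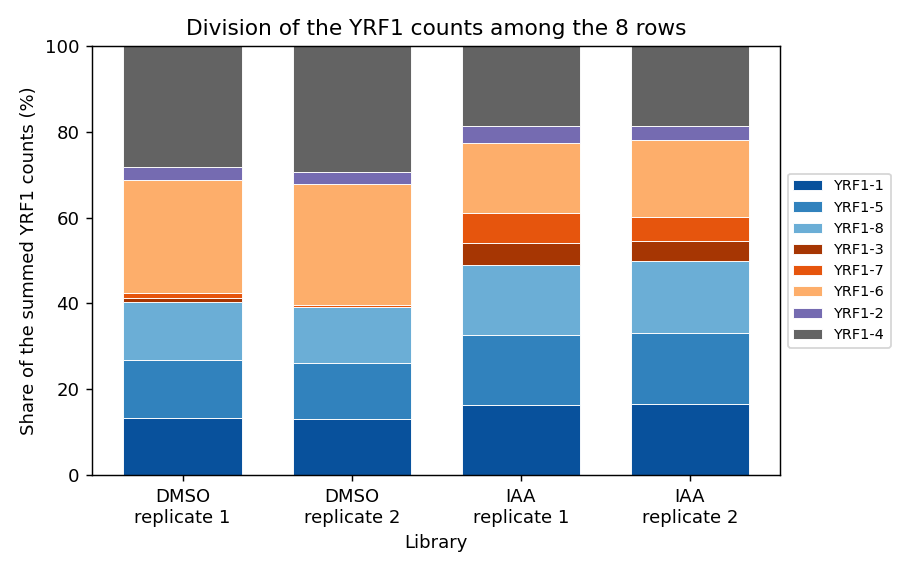
Share of the summed YRF1 estimated counts (y axis, percent) taken by each of the 8 rows in the 4 libraries (x axis). YRF1-3, YRF1-6 and YRF1-7 together fill 28.2% to 28.7% of every bar although their split differs, and YRF1-4 takes 28.2% and 29.3% in DMSO against 18.7% and 18.6% in IAA.

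Levels were compared between copies per length, on the FPKM scale. In DMSO the mean order was YRF1-4 at 94.3, YRF1-6 at 65.8, the identical trio at 33.0 each, YRF1-2 at 7.70, YRF1-7 at 1.70 and YRF1-3 at 1.46 FPKM. YRF1-7 and YRF1-3 did not differ beyond their spread in DMSO. In IAA the order was YRF1-4 at 66.6, the identical trio at 44.7 each, YRF1-6 at 44.6, YRF1-7 at 16.7, YRF1-3 at 12.8 and YRF1-2 at 10.6 FPKM, where the trio and YRF1-6 were level. The median tested gene stood at 61.1 FPKM in DMSO and 57.5 in IAA, so apart from YRF1-4, and YRF1-6 in DMSO, single copies lay below it. The 8 rows summed, set against single genes, lay above 88.2% of tested genes in DMSO and 89.5% in IAA. YRF1-4, the highest single row, lay above 65.5% in DMSO and 56.3% in IAA.

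Among the 29 other Y′ open reading frames, 26 were tested, of which 6 were higher, 6 were lower and 14 were not called. That was 23.1% in each direction, beside 28.7% higher and 29.6% lower over all tested rows. Their median log2 fold change was -0.02 beside -0.0036 over all tested rows. YPR204W, the most abundant, fell 1.21-fold, from 460 ± 17.4 to 380.03 ± 4.51 CPM (SD, n = 2 each; edgeR adjusted p = 9.74e-04). YBL113C also fell, from 94.8 to 83.9 CPM (edgeR adjusted p = 0.0144). YPR202W rose from 35.4 to 46.1 CPM (edgeR adjusted p = 7.64e-04) and YBL111C from 19.9 to 34.9 CPM (edgeR adjusted p = 0.00663). The other rows that share windows with YRF1 and are named by their abundance were not called: YJL225C at 305 and 320 CPM, YML133C at 160 and 154, YLL066C at 113 and 110, YEL077C at 86.2 and 87.3, YHL050C at 52.3 and 52.2, YHR219W at 55.3 and 45.2, and YFL066C at 15.5 and 19.1 CPM in DMSO and IAA. YLL066C differed more between replicates than between treatments, at 83.8 and 142 CPM in DMSO and 90.1 and 131 in IAA.

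Rows antisense to YRF1 or overlapping it were examined for reads from the other strand, since use of the strand in counting is not stated in the labels. YER190C-B, which lies within YRF1-2 on the opposite strand, held 564.89 and 430.88 counts in the DMSO libraries and 0 in both IAA libraries. YFL068W, which holds the reverse complement of YRF1 windows, fell from 24.99 to 10.2 CPM (log2 fold change -1.29, standard error 0.0854, edgeR adjusted p = 2.30e-05). YFL067W, the remaining row of this kind, stood at 7.77 and 6.02 CPM in DMSO and IAA and was not called (edgeR adjusted p = 0.0527). YER190C-B and YFL068W were thus lower in IAA, while the YRF1-2 row was higher. YER189W, which overlaps YRF1-2 and shares its sequence, rose 1.85-fold from low counts of 66.15 and 58.62 to 150.14 and 119.72 (edgeR adjusted p = 0.00382). YLR464W, which overlaps YRF1-4, held at most 17.59 counts and was not tested. YHR218W, a Y′ row that overlaps no YRF1 gene and was named after its values were seen, held 228.76 and 117.53 counts in DMSO and 3.32 and 0.01 in IAA.

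Genes outside the Y′ elements that lie within 20000 bases of the ends carrying YRF1 were examined as neighbours. Counting only rows with no divided reads, 15 were tested, of which 5 were higher, 2 were lower and 8 were not called, with a median log2 fold change of 0.09. The share called higher, 33.3%, was near the 28.7% of all tested rows, and the share called lower was 13.3% beside 29.6%. MAL11, a permease for maltose and other alpha-glucosides, rose 1.56-fold from 24.5 to 38.2 CPM (edgeR adjusted p = 7.66e-05). TOG1, a transcriptional activator of oleate genes, rose 1.34-fold from 22.2 to 29.8 CPM (edgeR adjusted p = 5.68e-04). PUG1, a protoporphyrin and heme transporter, rose 2.33-fold from a low 1.40 CPM, and PEX6, a peroxisome biogenesis ATPase, rose 1.22-fold from 78.9 CPM. With rows that share reads included, 34 were tested, 11 higher (32.4%) and 2 lower (5.88%), with a median of 0.15. These rows include COS6, of a subtelomeric membrane protein family, which rose 1.67-fold from 156 to 260 CPM, and MAL12, a maltase, which rose 2.34-fold from 5.04 to 11.8 CPM.

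Of 19 genes for telomeric silencing and for factors that bind subtelomeric DNA, 10 were lower, 1 was higher and 8 were not called, with a median log2 fold change of -0.15. These were 52.6% lower and 5.26% higher, beside 29.6% and 28.7% of all tested rows. The rows with the lowest adjusted p were all lower. ABF1, a general regulatory factor with sites in subtelomeric X elements, fell 1.62-fold from 146 ± 2.75 to 89.9 ± 1.02 CPM (SD, n = 2 each; edgeR adjusted p = 2.04e-05). REB1, another general regulatory factor, fell 1.37-fold from 158 to 115 CPM. TBF1, which binds subtelomeric TTAGGG repeats, fell 1.34-fold from 61.1 to 45.5 CPM, and ORC1, the largest subunit of the origin recognition complex, fell 1.28-fold from 116 to 90.8 CPM. Their edgeR adjusted p was 1.21e-04, 4.20e-04 and 3.35e-04 in that order.

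Of 11 genes of telomerase and end protection, 4 were higher, 2 were lower and 5 were not called, with a median log2 fold change of 0.10. The shares, 36.4% higher and 18.2% lower, rest on few genes and lay near the 28.7% and 29.6% of all tested rows. TLC1, which is telomerase's template RNA, rose 1.36-fold from 106 ± 1.199 to 144 ± 8.53 CPM (SD, n = 2 each; edgeR adjusted p = 2.39e-04). TEN1, a partner of Cdc13 and Stn1 at the chromosome end, rose 1.83-fold from 3.55 to 6.53 CPM, and EST1, a telomerase subunit, rose 1.16-fold from 26.4 to 30.7 CPM. RRM3, a helicase that helps forks pass telomeres, fell 1.21-fold from 56.8 to 47.1 CPM.

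Of 15 recombination genes, which serve telomeres kept without telomerase, 5 were higher, 4 were lower and 6 were not called, or 33.3% and 26.7%, near the shares over all tested rows. RAD52, a central factor of homologous recombination, fell 1.25-fold from 62.7 to 50.2 CPM, POL32, a subunit of DNA polymerase delta, fell 1.31-fold from 56.6 to 43.2 CPM, and MMS21, a SUMO ligase, fell 1.38-fold from 15.9 to 11.6 CPM (edgeR adjusted p = 0.00239, 0.00145 and 0.00284). Of 14 genes for turnover of telomeric RNA and RNA-DNA hybrids, 3 were higher, 3 were lower and 8 were not called. That was 21.4% in each direction, beside 28.7% higher and 29.6% lower over all tested rows. NRD1, of the complex that ends noncoding transcripts, rose 1.301-fold from 160 to 209 CPM (edgeR adjusted p = 6.22e-04). RAI1, the partner of the TERRA-degrading exonuclease Rat1, fell 1.16-fold from 77.1 to 66.2 CPM, HPR1, of the THO complex, fell 1.17-fold from 113 to 96.4 CPM, and RNH203, of RNase H2, rose 1.39-fold from 6.55 to 9.09 CPM.

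Among 13 other DNA helicases, compared because YRF1 is one by sequence, 4 were lower and 9 were not called by edgeR. The share lower, 30.8%, was near the 29.6% of all tested rows, while the share higher was 0% beside 28.7%. Besides RRM3, the rows called lower were MPH1, which fell 1.15-fold from 148 to 128 CPM, RAD5, which fell 1.24-fold from 63.1 to 50.8 CPM, and SRS2, which fell 1.096-fold from 124 to 114 CPM.

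The rows whose profile over the 4 libraries lay nearest the YRF1 sum, among 1870 rows of at least 100 CPM with undivided reads, were CMP2, HYP2, KGD2, TAT2 and CCW12. Likeness was measured as the Euclidean distance between log2 CPM centred on each row's own mean. The distances were 0.0143 for CMP2, a calcineurin subunit, 0.0264 for HYP2, translation factor eIF5A, 0.0310 for KGD2, a subunit of the alpha-ketoglutarate dehydrogenase complex, 0.0331 for TAT2, a tryptophan permease, and 0.0353 for CCW12, a cell wall mannoprotein. With 4 libraries in 2 groups, such a profile holds little beyond the size of the rise and the gap between replicates.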

How the data were processed

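Total RNA from 4 cultures of the ESS1 degron strain was column-purified with DNase and made into directional libraries, per the labels' protocols. The authors deposited expected counts per gene, which need not be whole, and a separate table of FPKM values. RSEM 1.3.3, STAR 2.7.10a, Trimmomatic, FastQC 0.11.9, SAMtools 1.10, DESeq2 and build R64 appear in the submitters' processing notes, with no role or order. Read length, the limit on multiply mapped reads and use of strand in counting are not given in the sources used here. The gene lists and the YRF1 members were chosen with earlier results of these data known.

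Expected counts were rounded and tested in R 4.3.3 with edgeR 4.0.16 (filterByExpr, TMM, glmQLFit, glmQLFTest; Benjamini-Hochberg over all 5799 tested rows, or 5792 with the 8 YRF1 rows replaced by their sum). The standard error is the log2 fold change divided by the square root of F. A p-value measures no spread beyond that between 2 libraries a group, and edgeR moderates each row's spread with that of the other rows. The scripts were tested on simulated data. Levels are given in CPM after TMM scaling, with the SD. FPKM values were tested with limma 3.58.1 after adding 1 or 0.1. Alternatives were other scalings and filters, DESeq2 1.42.0, voom, each library left out, a replicate block and other sums. The deposited depth was about 26046700 to 33625200 counts a library, and the chi-square per degree of freedom between replicates, 6.40 for DMSO and 19.5 for IAA, exceeded sampling noise. Sequences and positions came from RefSeq's R64 genome and annotation, in which 6456 of 6459 row names matched, and were aligned with MAFFT 7.526. Named were all YRF1 rows, other Y′ rows of at least 10 CPM (at most 12 by level), overlapping rows, and in each list the 4 rows with the lowest adjusted p, of which 1 recombination gene is not reported here.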

Additional observations from a re-analysis of the deposited data

How the results depend on the processing

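Each of the 8 single YRF1 rows kept its direction in 104 of 104 alternatives run, and its call in those with 2 libraries a group. These 104 count YRF1-1, YRF1-5 and YRF1-8, which are 1 measurement, as 3 rows. Every alternative took the deposited division of reads among copies as given, so none could test that division. The alternatives of the YRF1 sum also repeat each other in part. Leaving out YRF1-1, YRF1-5 or YRF1-8 gave the same fit, and adding the other Y′ open reading frames gave that of all Y′ rows. The YRF1 sum kept its direction in 21 of 21 alternatives and lost its call in 2. Its log2 fold change was 0.0799 (limma adjusted p = 0.135) on the summed FPKM plus 1 and 0.0583 (edgeR adjusted p = 0.238) with the other Y′ open reading frames added. With each library left out in turn it stayed between 0.19 and 0.26, with edgeR adjusted p from 1.83e-04 to 0.0239. There 1 group has a single library and takes its spread from the other group alone, so these p-values, for single rows too, are no replicate check of that group. The sum of all Y′ rows, called in none of its alternatives, turned sign at -0.0468 under library size alone and at -0.0280 (edgeR adjusted p = 0.543) with only the rows that share a 100-base window with YRF1, under library size alone, an alternative chosen after seeing the data. The cause was not tested. Scaling by library size alone moved the share of calls that were higher in IAA from 49.3% to 31.1%. Over all genes 3380 were called, and 2577 to 3708 under the alternatives. Called counts of the gene lists moved by over 1.5 times in 5 of 104 cases, among them the other DNA helicases (4, and 8 under library size alone), telomeric RNA turnover (6, and 3 without DMSO replicate 1) and telomerase (6, and 3 without DMSO replicate 2). With the replicate number as a block the YRF1 sum was 0.22 (edgeR adjusted p = 6.33e-04), all 8 rows were called and 3708 genes were called. The labels give the numbers no shared batch, and deviations of same-numbered libraries correlated at 0.230 over 5799 genes in 2 pairs, so the numbers were not taken to pair the cultures. No more than 7.31% of any copy's 100-base windows were absent from other annotated transcripts. With that and 2 libraries a group, these counts cannot place a change in 1 copy.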
